A study of Mus musculus with 4 samples.

Results

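Macrophages with the surface proteins Folr2, Lyve1, Timd4, Cd163 and Mrc1 are the settled macrophages of many tissues, and here the barcodes that carry their transcripts were described in mouse Achilles tendon. A barcode, which stands for 1 cell, was taken as a member when it held at least 500 genes, at least 1000 unique molecular identifiers (UMIs, the count of captured RNA molecules) and at most 15% mitochondrial UMIs. It also had to hold at least 5 UMIs of C1qa, C1qb and C1qc together, at least 2 of Folr2, Lyve1, Timd4 and Cd163 together, no Mmp12, fewer than 3 Gpnmb and no Cdh5. The members were thus chosen by the levels of these rule genes, and the levels of the rule genes are given only as a description. The rule found 1133 members among 38780 deposited barcodes, 36052 of which passed the quality limits. They were 260 in neonate control, 499 in neonate injury, 137 in adult control and 237 in adult injury.

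The study measured single-cell RNA in dissociated Achilles tendon, with 1 library for each of 4 groups. Neonate control was tendon of mice at postnatal day 3 without injury and neonate injury was injured tendon of mice labelled with that age. Adult control and adult injury were the same 2 states in mice of 6 to 8 weeks. All 4 tissues were digested with collagenase and DNase before encapsulation, so the cells described are those that this digestion released. The strain, sex and number of mice, whether animals were pooled, the kind of injury, the time after it, and whether the stated age is that at injury or at collection are not given in the sources used here. With 1 library per group, no comparison has a replicate check, no test was made, and ages or states cannot be told apart from libraries.

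Settled tissue macrophages of this kind lie along vessels and in connective tissue, take up dying cells, proteins and lipids through scavenger receptors, and secrete complement C1q. Lyve1 binds hyaluronan, Folr2 binds folate, Timd4 binds phosphatidylserine on dying cells, Cd163 takes up haemoglobin bound to haptoglobin and Mrc1 is the mannose receptor. In many tissues the Lyve1-high cells carry little MHC class II, the complex that presents peptides to CD4 T cells, whereas cells descended from blood monocytes often carry MHC class II and the chemokine receptor Ccr2.

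The label was checked against its markers first. Mrc1, which the rule did not use, had a UMI in 99.2% of members in neonate control, 97.6% in neonate injury, 98.5% in adult control and 96.2% in adult injury. Csf1r, the receptor for the macrophage growth factor Csf1, and the macrophage adhesion receptor Adgre1 were likewise found in nearly every member (Csf1r in 255 of 260, 472 of 499, 135 of 137 and 223 of 237). The members were therefore macrophages by their own transcripts in all 4 libraries.

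The resident part of the label held less well after injury. Lyve1 had a UMI in 88.8% of members in neonate control and 83.2% in adult control, but in 30.1% in neonate injury and 17.3% in adult injury. Thinning every barcode to 2000 UMIs, which removes the difference in depth, gave 63.0% and 71.1% in the control libraries of neonates and adults, and 21.3% and 11.1% after injury. Where 4 values follow each other without names, the neonatal control comes first, then the neonatal injury, the adult control and the adult injury, and where 2 values are given for an age the control comes first. Folr2 had a UMI in 92.3%, 96.6%, 87.6% and 93.2% of members. Of the 4 rule markers, Folr2 alone was present in 6.15% of members in neonate control and 1.46% in adult control, against 40.1% in neonate injury and 62.9% in adult injury. Members of the injured libraries are thus called here C1q-positive macrophages with Folr2, Lyve1, Timd4 or Cd163, and whether they were resident before the injury was not tested.

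The summed level of each marker moved with this. Levels are counts per 1000000 UMIs (CPM), with the UMIs of all members of a library summed. Lyve1 stood at 910.3 CPM in neonate control, 233 in neonate injury, 1929.6 in adult control and 130.4 in adult injury. Cd163 stood at 259.9 CPM in neonate control, 134 in neonate injury, 564 in adult control and 154 in adult injury, again lower in each injured library than in the control of the same age. Folr2 was at 489 and 793 CPM in neonates and 605 and 323 CPM in adults, so the injured neonates had the highest level and the injured adults the lowest. Timd4 was at 23.8 and 59.9 CPM in neonates and 51.6 and 4.04 CPM in adults, and only 7 of 237 members in adult injury held a UMI of it. In these pooled values, fewer members with a transcript and less of it per member cannot be told apart.

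**Figure D1:**
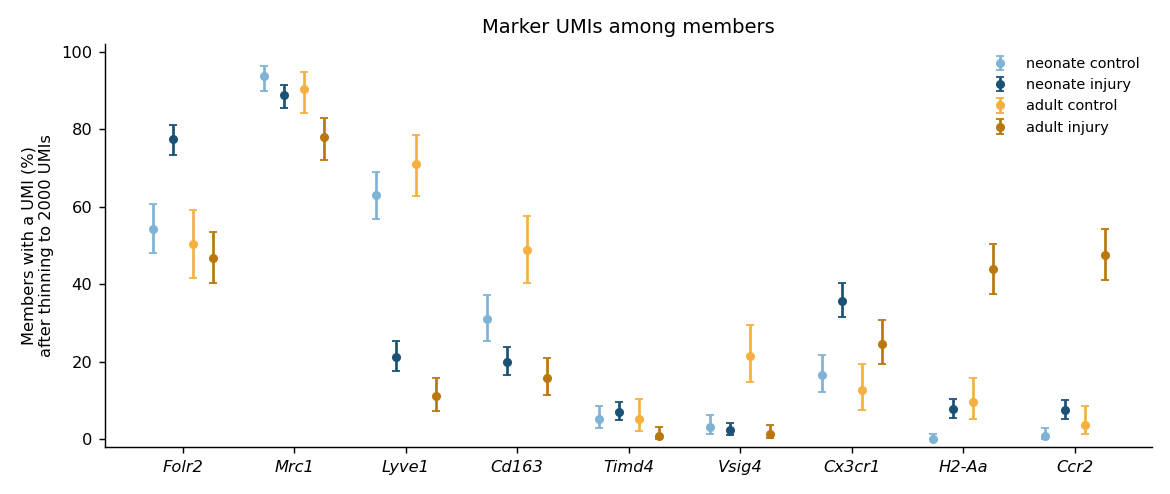
Percent of members with a UMI of each marker after thinning to 2000 UMIs, for the 4 libraries, with points for the share and bars for its exact 95% interval. Lyve1 is at 63.0% and 71.1% in the control libraries and 21.3% and 11.1% in the injured ones, while H2-Aa and Ccr2 are highest in adult injury at 43.8% and 47.7%.

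The minimum of 2 UMIs of the 4 rule markers lay at a different place in each library's distribution. The median member held 15, 5, 26 and 3 of these UMIs, so the injured libraries were close to the minimum. Members with exactly 2 UMIs numbered 14 of 260 in neonate control, 95 of 499 in neonate injury, 6 of 137 in adult control and 92 of 237 in adult injury. Just outside, 23, 163, 10 and 150 barcodes had a single UMI and met the other criteria. The cut on C1q, in contrast, touched few barcodes. The median member held 104, 34, 118 and 49 C1q UMIs, and 0, 2, 0 and 1 members held exactly 5.

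Depth and the presence of other cells' RNA differed between libraries. The median UMI count per member was 12098, 5340, 11644 and 9257 in the 4 libraries, and the summed UMIs of members ran from 1706032 to 3354847. Intervals in the text are exact 95% intervals for counting error only. The 6 fibroblast markers (3 collagen genes, Dcn, Lum and Pdgfra), none of them at 0 in any library, together reached 5020, 8541, 1292 and 9538 CPM in members against 27902 to 64512 CPM in barcodes with no C1q UMI. At least 5 fibroblast UMIs were found in 85% of members in neonate control, 64.1% in neonate injury, 61.3% in adult control and 94.9% in adult injury. Haemoglobin and Alas2 summed to 1145, 1469 and 2003 CPM in the first 3 libraries, of which 86.1%, 79.9% and 98.6% came from 1 member each. Neutrophil markers were near 0, at 11.9, 0, 0.586 and 10.5 CPM, and T and NK cell markers at 0.298, 1.72, 0.586 and 4.04 CPM. Of all member barcodes, 1 sequence occurred in 2 libraries, both injured. Transcripts of the X-inactivation RNA Xist and of Y-linked genes showed the sex of the cells. In neonate control 231 of 260 members had a Y-linked UMI and none had Xist, whereas 132 of 137 members in adult control and 219 of 237 in adult injury had Xist and no Y-linked UMI. Neonate injury held both kinds, 132 members with a Y-linked UMI only and 263 with Xist only. Age and sex therefore cannot be told apart in the comparison of the controls.

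Members were a small share of each tendon. They made up 2.49% of quality-filtered barcodes in neonate control (260 of 10429, exact interval 2.20 to 2.81%), 3.35% in neonate injury (499 of 14885, 3.07 to 3.65%), 2.24% in adult control (137 of 6113, 1.88 to 2.64%) and 5.12% in adult injury (237 of 4625, 4.51 to 5.80%). After thinning to 2000 UMIs the shares were 1.91%, 2.15%, 2.08% and 2.10%. Thinning also acts as a stricter minimum of marker UMIs, and 121 barcodes in adult control but 89 in adult injury still met the rule. With all UMIs the share of members was thus higher in each injured library than in its control. The C1q-positive population around them differed more. Barcodes with at least 5 C1q UMIs were 3.50%, 9.46%, 2.93% and 27.0% of the quality-filtered barcodes. Members were 71.2% of these C1q-positive barcodes in neonate control and 76.5% in adult control, but 35.4% in neonate injury and 18.9% in adult injury, and after thinning 57.9% and 71.6% in the controls against 25.9% and 10.5% after injury. A share of a digest does not give the number of cells in the tissue, so fewer members and more cells of other kinds cannot be told apart.

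**Figure D2:**
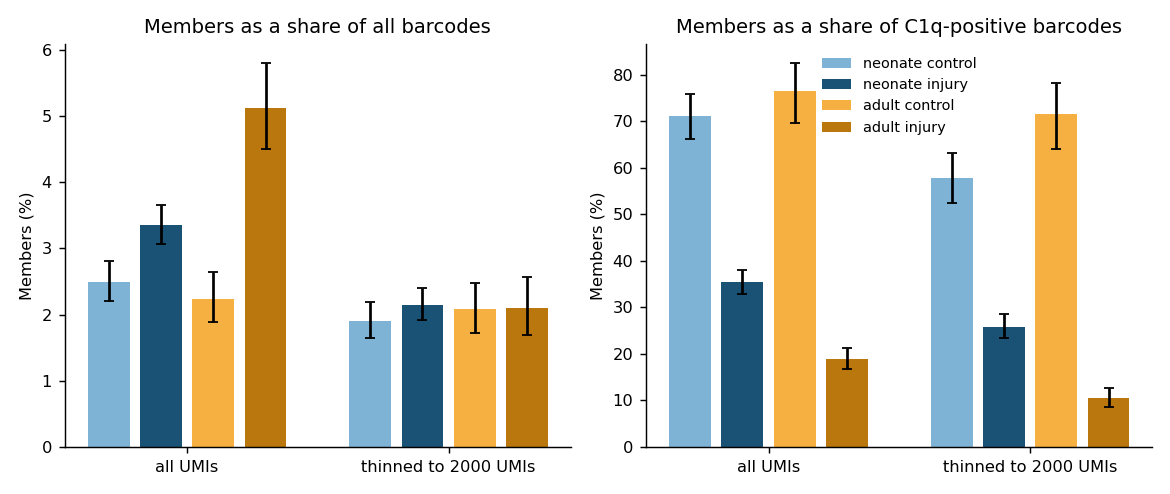
Members in each of the 4 libraries as bars in percent of all quality-filtered barcodes (left) and of C1q-positive barcodes (right), with all UMIs and thinned to 2000 UMIs and with exact 95% intervals for counting error. With all UMIs the members lie between 2.24% and 5.12% of all barcodes, while their share of C1q-positive barcodes is 71.2% and 76.5% in the control libraries and 35.4% and 18.9% in the injured ones.

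Gene levels in members were then compared in 3 ways. Neonate control was set against adult control (the age comparison), neonate injury against neonate control, and adult injury against adult control. Each control library serves in more than 1 of them, so they are not independent of each other. The difference is a log2 ratio of CPM with 0.5 counts added, over genes with at least 50 UMIs in the 2 libraries together, and a gene is called here when the ratio is at least 2-fold. In the age comparison, 960 of 8849 genes (10.8%) were called higher in the neonate and 802 (9.06%) lower. After neonatal injury, 598 of 9487 genes (6.30%) were called higher and 674 (7.10%) lower. After adult injury, 928 of 8332 genes (11.1%) were called higher and 613 (7.36%) lower. The interval lay wholly beyond 2-fold for 517 and 369 of the called genes in the age comparison, 265 and 216 after neonatal injury and 512 and 236 after adult injury. The median over all genes tested was -0.03, -0.08 and -0.07 in the 3 comparisons, against which the medians of gene lists are to be read. The counts of genes called in a list are to be read against the above shares over all genes in the same comparison. A gene near 0 in 1 library reaches the minimum of 50 UMIs only through the other, so a call of higher there is fixed. Such genes were not taken out of the counts and medians.

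MHC class II genes differed widely between the 4 libraries. H2-Aa, H2-Ab1 and H2-Eb1 encode the chains of the peptide-binding dimers, Cd74 the invariant chain that guards them, H2-DMa and H2-DMb1 the chaperone that loads peptide, and Ciita the coactivator that turns the genes on. Their promoters share a compact module in which the factor NF-Y binds an inverted CCAAT motif called the Y box. The upstream windows of 3 of these genes are printed because these genes differed together, lower in the age comparison and higher after both injuries, each window being the 250 bases before the RefSeq transcript start (GRCm38.p6, from the table of RefSeq promoters, on the gene's strand). Capitals mark the letters CTGATTGG, or ATTGG where the longer match is missing.
H2-Aa (chr17:34287824-34288073, minus strand): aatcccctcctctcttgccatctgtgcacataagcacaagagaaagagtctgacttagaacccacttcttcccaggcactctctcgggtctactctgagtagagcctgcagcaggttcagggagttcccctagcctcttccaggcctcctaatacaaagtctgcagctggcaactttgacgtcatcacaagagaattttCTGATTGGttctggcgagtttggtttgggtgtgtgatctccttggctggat
H2-Eb1 (chr17:34305617-34305866, plus strand): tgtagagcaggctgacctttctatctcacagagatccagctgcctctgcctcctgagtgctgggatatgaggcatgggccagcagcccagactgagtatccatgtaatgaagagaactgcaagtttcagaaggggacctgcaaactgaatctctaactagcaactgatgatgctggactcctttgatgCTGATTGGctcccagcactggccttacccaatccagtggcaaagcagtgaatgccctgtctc
H2-DMb1 (chr17:34152941-34153190, plus strand): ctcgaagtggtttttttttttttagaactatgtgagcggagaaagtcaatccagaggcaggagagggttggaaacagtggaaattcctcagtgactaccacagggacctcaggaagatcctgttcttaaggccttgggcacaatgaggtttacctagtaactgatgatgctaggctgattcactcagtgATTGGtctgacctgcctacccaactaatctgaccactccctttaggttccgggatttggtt
CTGATTGG or its reverse complement CCAATCAG was in 1258 of 32851 mouse promoter windows (3.83%), and ATTGG or CCAAT, which lies within the longer motif, in 33.8%. Of the 11 listed MHC class II genes, 8 had a window counted here, all on chromosome 17, with 2 windows for H2-DMa. Windows on another chromosome were left out beforehand, and none is counted for H2-Ab1, Cd74 and Ciita. The longer motif was in 4 of these 9 windows and the shorter in 8. The match is in the letters only and gives no evidence of binding in these cells.

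H2-Aa stood at 0.596 CPM in neonate control, 218 in neonate injury, 223 in adult control and 1812 in adult injury. Only 2 of 260 members held a UMI of it in neonate control, against 55 of 499 in neonate injury, 18 of 137 in adult control and 137 of 237 in adult injury. The neonatal controls were thus nearly devoid of it, and in the injured adults most members had it. H2-Ab1 followed at 2.09, 115, 152 and 887 CPM in the same order of libraries, and H2-Eb1 at 2.68, 172, 137 and 1244 CPM. Cd74 was at 39.0 and 424 CPM in neonates and 623 and 2864 CPM in adults. Ciita had no UMI in neonate control and stood at 5.51, 2.34 and 37.5 CPM in the other libraries. The order of libraries was the same for all of these genes at its 2 ends, with neonate control lowest and adult injury highest, while neonate injury and adult control lay between.

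After neonatal injury the log2 ratio was 8.19 (6.65 to 11.56) for H2-Aa, with 2 UMIs in the control, 5.68 (4.72 to 7.11) for H2-Ab1, 5.93 (5.07 to 7.14) for H2-Eb1 and 3.43 (3.18 to 3.71) for Cd74. H2-DMa and H2-DMb1 followed with 2.10 (1.67 to 2.56) and 1.11 (0.49 to 1.77). All 6 of the list's 6 genes tested were called higher and the median was 4.56. After adult injury the ratios were 3.02 (2.87 to 3.18) for H2-Aa, 3.18 (2.99 to 3.38) for H2-Eb1, 2.20 (2.11 to 2.29) for Cd74 and 3.84 (2.60 to 5.91) for Ciita. There 7 of 7 genes tested were called higher, with a median of 2.54, or 1.60 with the 53 and 12 members that had under 5 fibroblast UMIs. Ciita, near 0 in adult control, was tested there only through adult injury and had to be called higher. In the age comparison all 6 genes tested were called lower in the neonate, with a median of -4.80. With so few UMIs in neonate control, H2-Aa, H2-Ab1 and H2-Eb1 reached the minimum of 50 UMIs only through the other library, so the 2 counts that involve neonate control are a description.

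RNA of other cells in the suspension was gauged from barcodes with no C1q UMI. Cells that make MHC class II themselves were not taken out of these, so the values are no direct measure of free RNA. In barcodes with no C1q UMI, H2-Aa was at 13.6, 68.6, 85.3 and 276 CPM in the same order of libraries, below the members in the 3 libraries where members had it. At 2000 UMIs per barcode, H2-Aa had a UMI in 0, 7.66%, 9.63% and 43.8% of members, against 0.392%, 1.92%, 1.98% and 10.2% of barcodes without C1q. A count of 0 among the 254 thinned neonatal members has an exact upper limit of 1.44%. Few members lay behind the lower levels, with 1 member holding 26.2% of all H2-Aa UMIs in adult control and 12.2% in neonate injury.

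**Figure D3:**
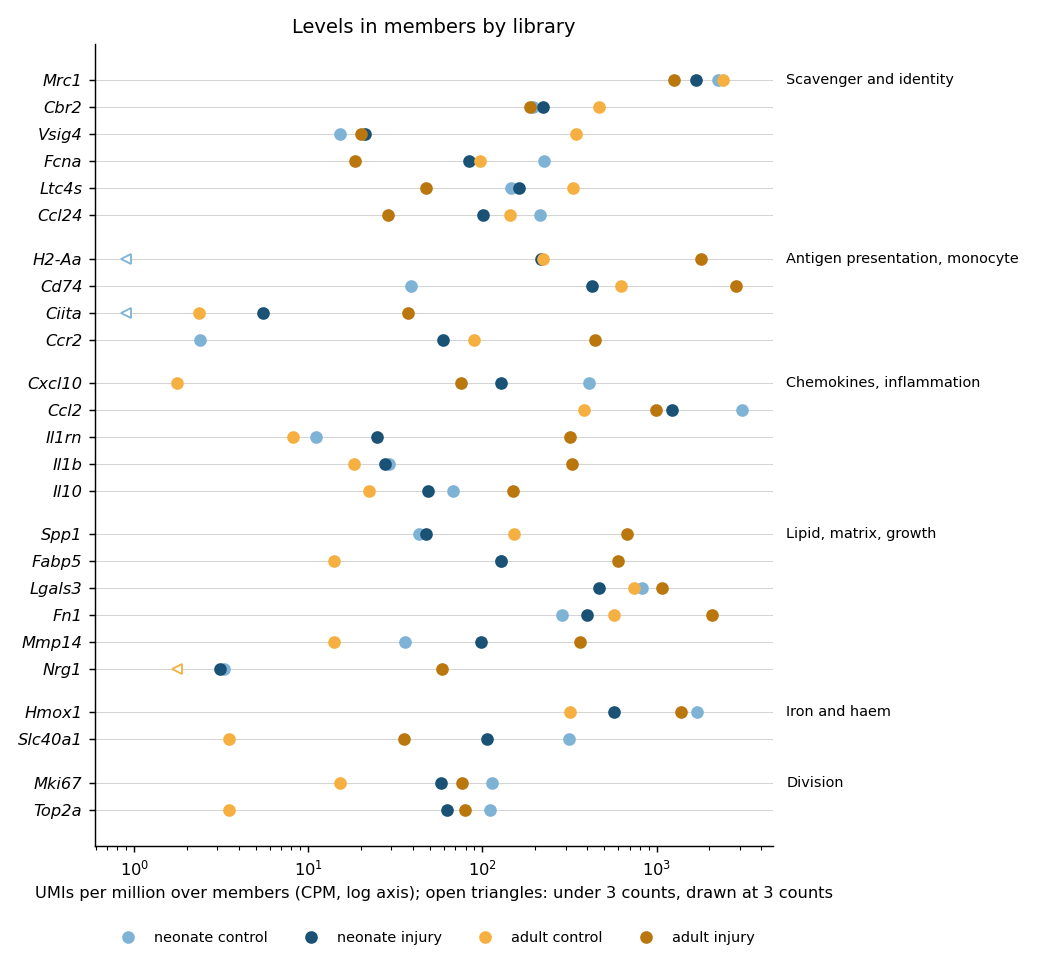
CPM of selected genes summed over members in the 4 libraries on a log axis, with a filled circle per library and open triangles, drawn at 3 counts, where fewer were found. H2-Aa runs from 0.596 CPM in neonate control to 1812 CPM in adult injury, while Vsig4 is at 346 CPM in adult control and 20.2 CPM in adult injury.

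Monocyte genes followed the MHC class II genes in part. Ccr2, which brings monocytes out of the marrow and into tissue, stood at 2.38 CPM in neonate control, 59.6 in neonate injury, 89.7 in adult control and 445 in adult injury. A UMI of Ccr2 was found in 2, 71, 17 and 154 members, which is 65.0% of members in adult injury. At 2000 UMIs the share was 0.787%, 7.45%, 3.70% and 47.7% in members and 0.218%, 1.25%, 0.840% and 7.17% in barcodes without C1q. Ccr2 had a log2 ratio of 4.56 (3.63 to 5.88) after neonatal and 2.31 (2.07 to 2.57) after adult injury. Plac8, a gene high in inflammatory monocytes, was at 3.58, 66.5, 2.93 and 21.4 CPM and Ms4a4c at 2.09, 28.2, 7.62 and 38.7 CPM. Ly6c2, the surface antigen of classical monocytes, was at 0.298, 42.0, 27.0 and 5.25 CPM, its adult control value coming from 1 member. S100a4 was lower in each injured library, at 655 and 335 CPM in neonates and 3088 and 939 CPM in adults. The matrix proteoglycan gene Vcan was called lower after neonatal injury (-1.08, -1.37 to -0.81), and Ly6c2 after adult injury (-2.32). Over the list, 5 of 8 genes were called higher and 1 lower after neonatal injury (median 2.42), and 4 of 8 higher and 2 lower after adult injury (median 1.41). In neonate control Ccr2 had 8 UMIs and Plac8 12, against 173 and 193 in neonate injury, and Ly6c2 and Ms4a4c were near 0. These genes reached the minimum of summed UMIs only through neonate injury and had to be called higher there. The neonatal count and median of the list are therefore only a description. Plac8, at 2.93 CPM in adult control, likewise reached the minimum only through adult injury. The adult median turned negative when members needed 3 marker UMIs (-0.10), when members with 5 or more fibroblast UMIs were left out (-0.32), or when only members with no H2-Aa, H2-Ab1, H2-Eb1 or Ccr2 UMI were kept (-0.24). Cx3cr1, the fractalkine receptor, was at 129.7 and 329 CPM in neonates and 88.5 and 198 CPM in adults.

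Members differed among themselves by Lyve1. In adult control, 9 of 114 members with a Lyve1 UMI (7.89%) had H2-Aa, against 9 of 23 without (39.1%), and the intervals of 3.67 to 14.5% and 19.7 to 61.5% did not overlap. In neonate injury the shares were 5 of 150 (3.33%) and 50 of 349 (14.3%). In adult injury they were 20 of 41 (48.8%) and 117 of 196 (59.7%), with overlapping intervals, so at this number of members the split was not resolved there. Thinned to 2000 UMIs, the pairs were 2.15% and 23.8% in adult control, 3.70% and 9.39% in neonate injury, and 36% and 46.2% in adult injury, with overlapping intervals in both injured libraries. The sum of H2-Aa, H2-Ab1, H2-Eb1 and Cd74 in members with Lyve1, over that in members without, had a log2 ratio of -3.84 in adult control, -2.94 in neonate injury and -1.03 in adult injury. In adult injury, members with Lyve1 thus also held H2-Aa, in about the share seen in adult control members without it. The cells of a library are not replicates, so these intervals cover counting error within it.

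Timd4 split the members differently in adult control and in neonate injury, 2 libraries that differ in age and in state. In adult control, 1 of 46 members with Timd4 (2.17%) had H2-Aa, against 17 of 91 without (18.7%). In neonate injury the order was the other way, with 21 of 99 (21.2%) against 34 of 400 (8.50%). After thinning neither split was resolved, with 0 of 10 against 9.6% in adult control and 15.9% (6.64 to 30.1%) against 7.28% (5.0 to 10.2%) in neonate injury. In neonate control 0 of 51 members with Timd4 and 2 of 209 without had H2-Aa. Timd4 and H2-Aa were both higher in the members of neonate injury with Y-linked UMIs than in those with Xist (119 against 31.8 CPM for Timd4 and 504 against 99.8 CPM for H2-Aa). Adult injury had 7 members with Timd4, none with a Ccr2 UMI and 2 with H2-Aa. Members with a Ccr2 UMI carried more of the 4 MHC class II transcripts than those without in each library where both were found in number, by a log2 ratio of 2.30 in neonate injury, 4.60 in adult control and 1.5 in adult injury. In neonate control 2 members had a Ccr2 UMI.

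Among the genes of settled scavenging macrophages, the lists were split rather than shifted as a whole. Cbr2, a carbonyl reductase, stood at 196 CPM in neonate control, 222 in neonate injury, 470.1 in adult control and 188 in adult injury. F13a1, the coagulation factor XIII subunit, was at 1162, 1536, 2656 and 1283 CPM and Ltc4s, which makes leukotriene C4, at 145, 161, 332 and 47.2 CPM, in the same order. For these 3 genes adult control was highest, and adult injury stood within or below the range of the 2 neonatal libraries. Vsig4, a complement receptor, was at 15.2 CPM in neonate control, 21.0 in neonate injury, 346 in adult control and 20.2 in adult injury. It had a UMI in 48 of 137 members in adult control (35.0%), and in 14 of 260, 13 of 499 and 3 of 237 members elsewhere. Pf4, a chemokine of platelets and resident macrophages, was at 4982 and 2365 CPM in neonates and 3023 and 1451 CPM in adults, lower in each injured library. Selenop, a secreted selenium carrier, was at 1583 and 3718 CPM in neonates and 2281 and 2737 CPM in adults.

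By count, the identity list had 1 gene called higher and 8 lower of 23 after adult injury, with a median of -0.56, against 11.1% higher and 7.36% lower over all genes. The lowest ratios were those of Vsig4 (-4.09, -4.55 to -3.68), Ltc4s (-2.81, -3.11 to -2.52), the lectin gene Fcna (-2.38, -2.89 to -1.91) and the scavenger receptor gene Colec12 (-2.12, -2.41 to -1.85). Cd5l, at 0 in adult control and 30.7 CPM in adult injury, was the gene called higher, by at least 4.12. With only the 25 members of adult injury that held no H2-Aa, H2-Ab1, H2-Eb1 or Ccr2 UMI, against 99 in adult control, the median was -0.10. After neonatal injury, 2 genes were called higher and 2 lower of 22 (median 0.43), near the 6.30% and 7.10% over all genes. The higher were Marco, a scavenger receptor for bacteria, and Selenop, and the lower were Fcna and Pf4. In the age comparison, 7 of 21 were called lower in the neonate and 1 higher.

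Several identity genes also went with Lyve1 inside each library. Cbr2 in members with a Lyve1 UMI over members without had log2 ratios of 2.23, 1.35, 1.06 and 1.12, F13a1 1.70, 0.96, 1.45 and 0.72, and Ccl24 1.78, 0.87, 1.54 and 1.34. Mrc1 was closer, at 0.79, 0.41, 0.70 and 0.33. Cx3cr1 ran the other way, at -0.36, -0.36, -2.94 and -1.07. The sign was the same in all 4 libraries for each of these 5 genes, but the interval for Cx3cr1 held 0 in neonate control. Pf4 was at 0.55, 0.78 and 1.11 in the first 3 libraries and did not differ beyond counting error in adult injury (-0.063, -0.19 to 0.06).

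Chemokine genes were high in neonatal control members and moved in opposite directions after injury at the 2 ages. Ccl2, the ligand of Ccr2, stood at 3098 CPM in neonate control, 1223 in neonate injury, 381 in adult control and 992 in adult injury. Its ratio was -1.34 (-1.40 to -1.29) after neonatal and 1.38 (1.26 to 1.51) after adult injury. Cxcl2, which draws neutrophils, was at 4965, 2336, 1191 and 4025 CPM and Cxcl1, with the same receptor, at 545, 195, 141 and 398 CPM. The interferon-induced T cell attractant Cxcl10 was at 407 CPM in neonate control, 128 in neonate injury, 1.76 in adult control and 75.1 in adult injury. In each of these 4 genes adult control was lowest and neonate control highest. Ccl8 and Ccl6 were exceptions. Ccl8 was at 28.6 and 240.1 CPM in neonates and 82.1 and 377 CPM in adults and Ccl6 at 284 and 971 CPM in neonates and 438 and 938 CPM in adults, higher after injury at both ages. Ccl24, an eosinophil attractant typical of Lyve1-positive macrophages, was at 214 and 100.3 CPM in neonates and 144 and 28.7 CPM in adults, lower after injury at both ages.

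The chemokine list had 8 of 14 genes called higher and 1 lower in neonate over adult control (median 1.82). After neonatal injury 3 of 16 were called higher and 6 lower (median -0.67). After adult injury 12 of 15 were called higher and 2 lower (median 1.49). Ccl2 and Cxcl1 are also made by fibroblasts, and in barcodes without C1q they were at 361, 77.6, 63.0 and 281 CPM and 942, 420.4, 205 and 492 CPM in the 4 libraries. Their part in the members' values was not tested.

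Inflammatory mediators followed the same pattern in adults but not in neonates. Il1b was at 28.9 CPM in neonate control, 27.6 in neonate injury, 18.2 in adult control and 329 in adult injury. Its natural antagonist Il1rn was at 11.0, 24.8, 8.21 and 319 CPM and the prostaglandin synthase gene Ptgs2 at 52.5, 28.6, 6.45 and 162 CPM, so for all 3 genes adult injury stood apart from the other libraries. Nlrp3, the sensor that activates IL-1 beta, was at 152 and 192 CPM in neonates and 40.4 and 406 CPM in adults and Il10, an anti-inflammatory cytokine, at 67.7 and 48.6 CPM in neonates and 22.3 and 151 CPM in adults. Tnf was at 489.7 and 311 CPM in neonates and 185 and 526 CPM in adults, as high in neonate control as in adult injury. After adult injury 12 of 16 genes were called higher and none lower, with a median of 2.15. The median was 1.18 without members of 5 or more fibroblast UMIs. The largest were Il1rn (5.23, 4.53 to 6.16), Ptgs2 (4.59, 3.79 to 5.66), Il1b (4.16, 3.66 to 4.75) and Nlrp3 (3.32, 2.97 to 3.70). After neonatal injury 1 of 17 was called higher and 2 lower, and the median of -0.07 lay at that of all genes. In the age comparison 10 of 17 were called higher and none lower in the neonate (median 1.25). Il1b was also at 239 CPM in barcodes without C1q in adult injury.

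Interferon-stimulated genes were higher after injury at both ages. Irf7, the factor that amplifies type I interferon, stood at 19.1 CPM in neonate control, 90.6 in neonate injury, 8.21 in adult control and 62.2 in adult injury. Rsad2, an antiviral enzyme, was at 11.9, 54.8, 5.86 and 54.5 CPM and Gbp2, a guanylate-binding protein induced by interferon gamma, at 7.75, 96.5, 8.21 and 22.6 CPM. After neonatal injury 14 of 17 genes were called higher and none lower (median 1.37), and after adult injury 9 of 15 and none lower (median 1.42). Ifitm3 had a ratio of 1.82 (1.71 to 1.93) after neonatal and 0.36 (0.21 to 0.51) after adult injury. The adult median was 0.62 over 9 genes when members needed 3 marker UMIs, 0.62 over 4 genes without members of 5 or more fibroblast UMIs, and 0.40 over 4 genes in members with no H2-Aa, H2-Ab1, H2-Eb1 or Ccr2 UMI. Of the complement list 4 of 14 genes were called higher and none lower after neonatal injury, against 6.30% and 7.10% over all genes. Cfb, factor B of the alternative pathway, was at 21.2 and 149 CPM in neonates and 28.7 and 58.1 CPM in adults. C3, the central component, was at 5.07 and 66.1 CPM in neonates and 24.6 and 28.3 CPM in adults.

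**Figure D4:**
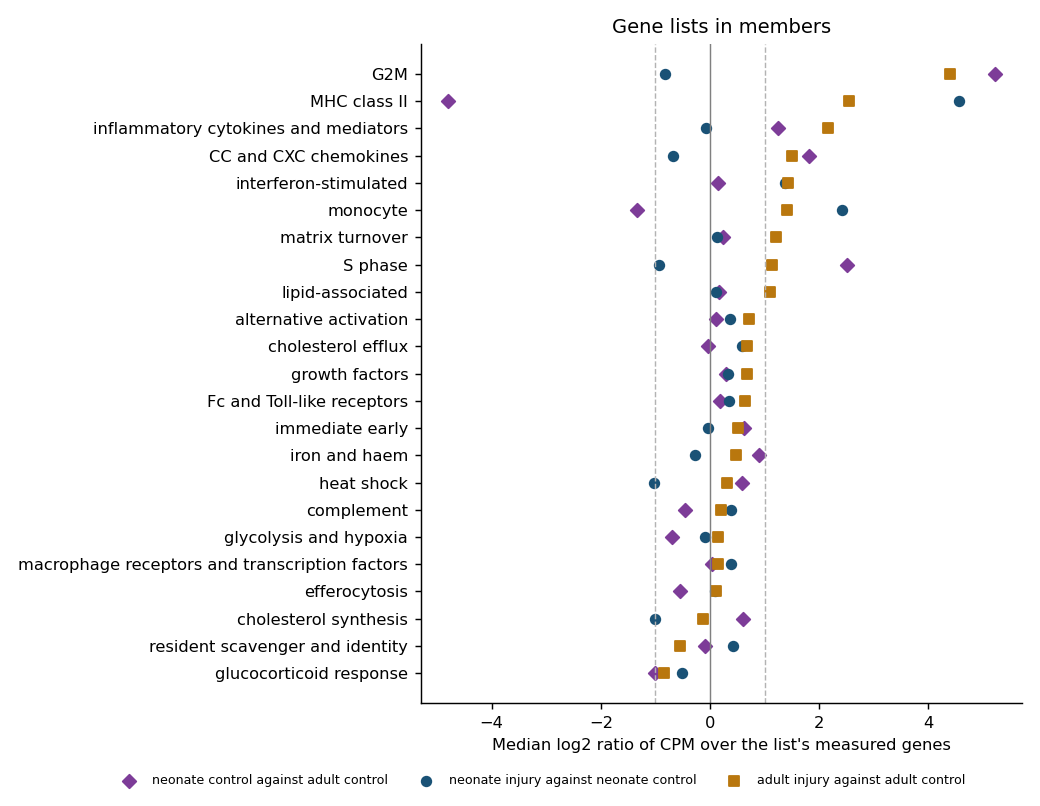
Median log2 ratio of CPM over the measured genes of each list in the 3 comparisons, with dashed lines at 2-fold. MHC class II is at 4.56 after neonatal and 2.54 after adult injury and at -4.80 in neonate over adult control, while the chemokine list is at 1.82, -0.67 and 1.49 in the age, neonatal injury and adult injury comparisons. Medians of lists with genes near 0 in 1 library, such as G2M, S phase and MHC class II, cover only genes that reached the minimum through the other library.

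Genes of lipid handling and lysosomes were higher after injury in adults. Fabp5, a fatty acid-binding protein, stood at 127 CPM in neonate control, 127 in neonate injury, 14.1 in adult control and 599.8 in adult injury, and Spp1, osteopontin, at 42.9 CPM in neonate control, 47.2 in neonate injury, 151 in adult control and 679 in adult injury. Apoe was at 7268 and 9448 CPM in neonates and 2192 and 7387 CPM in adults, with adult control the lowest of the 4, and the lysosomal protease gene Ctsd at 743 and 1125 CPM in neonates and 632 and 1925 CPM in adults. After adult injury 10 of 17 genes were called higher and 1 lower, the latter being Cd9 (-1.96, -2.10 to -1.82), and the median was 1.10. After neonatal injury 2 of 18 were called higher and 3 lower (median 0.12), with lipoprotein lipase Lpl at 2.07 (1.91 to 2.23). The shares of all genes called higher and lower were 11.1% and 7.36% after adult injury and 6.30% and 7.10% after neonatal injury. Trem2, a lipid receptor, differed by under 2-fold in each comparison, at 301, 342, 467 and 351 CPM. Because Mmp12 and high Gpnmb excluded a barcode, the rule chose members poor in genes that go with them. Spp1 was at 807 CPM in barcodes without C1q in adult control, above the members.

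Cholesterol genes showed 2 opposed movements in neonates. After neonatal injury, 5 of 11 synthesis genes were called lower and none higher (median -1.0), among them Cyp51 (34.3 and 7.23 CPM in neonates and 22.3 and 17.0 CPM in adults), Idi1 (45.9 and 12.7 CPM in neonates and 11.7 and 8.88 CPM in adults) and Hmgcs1 (99.6 and 36.9 CPM in neonates and 36.3 and 60.1 CPM in adults). The efflux genes Abcg1 (5.07 and 47.5 CPM in neonates and 51.6 and 117 CPM in adults), Abca1 (267 and 575 CPM in neonates and 315 and 759.6 CPM in adults) and their regulator Nr1h3 (3.28 and 14.8 CPM in neonates and 9.96 and 23.4 CPM in adults) were called higher after injury at both ages. Synthesis genes were also lower in barcodes without C1q after neonatal injury, Cyp51 at 103 and 28.9 CPM, and the median in members was 0.01 with the 39 and 179 members that had under 5 fibroblast UMIs.

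Among iron and haem genes, Hmox1 and Slc40a1 were higher in neonate than in adult control and went in opposite directions after the 2 injuries. Hmox1, which breaks down haem, stood at 1717 CPM in neonate control, 569 in neonate injury, 320.0 in adult control and 1386 in adult injury, and Slc40a1, the iron exporter ferroportin, at 314 CPM in neonate control, 106 in neonate injury, 3.52 in adult control and 35.5 in adult injury. For both, neonate control was highest and adult control lowest. Hmox1 had a ratio of -1.59 (-1.67 to -1.51) after neonatal and 2.11 (1.98 to 2.25) after adult injury, and Slc40a1 -1.56 (-1.75 to -1.38) and 3.23 (2.16 to 4.82). Tfrc, the transferrin receptor, was at 22.7 and 58.2 CPM in neonates and 68.6 and 42.4 CPM in adults. Of the iron and haem list, 4 of 12 genes were called higher and 1 lower in neonate over adult control, 1 and 2 of 13 after neonatal injury, and 2 and 0 of 12 after adult injury. The shares after injury were near those over all genes (6.30% higher and 7.10% lower in neonates, 11.1% and 7.36% in adults), so they are no result about the list.

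Matrix and growth factor genes were called higher mainly in adult injury. The membrane protease gene Mmp14 was at 35.8 CPM in neonate control, 98.5 in neonate injury, 14.1 in adult control and 362 in adult injury and fibronectin Fn1 at 286 CPM in neonate control, 397 in neonate injury, 573 in adult control and 2093 in adult injury. Vegfa, the vascular growth factor, was at 10.7, 5.17, 4.10 and 48.8 CPM and Hbegf, a ligand of the EGF receptor, at 68.3, 61.0, 8.79 and 75.9 CPM. Igf1, a tissue growth factor, was at 359 and 668 CPM in neonates and 220.4 and 330.2 CPM in adults. Over all genes, the shares called higher and lower were 11.1% and 7.36% after adult injury and 6.30% and 7.10% after neonatal injury. Of 16 matrix genes 10 were called higher and none lower after adult injury (median 1.20), against 1 higher and 1 lower of 15 after neonatal injury. Among growth factors 6 of 14 were called higher and 1 lower after adult injury, and 2 and 2 of 13 after neonatal injury. Fibroblasts make several of these in quantity, and barcodes without C1q held 761 CPM of Mmp14, 4355 of Fn1 and 604 of Igf1 in adult injury. The median of the matrix list after adult injury was 0.14 with the 53 and 12 members that had under 5 fibroblast UMIs, and the part of fibroblast RNA in the other values was not tested.

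Receptor and regulator genes outside these lists differed mostly after adult injury. Of the list of macrophage receptors and transcription factors, 9 of 24 genes were called higher and 1 lower there. After neonatal injury 5 of 24 were called higher and 1 lower. Over all genes, 11.1% were called higher and 7.36% lower after adult injury, and 6.30% and 7.10% after neonatal injury. Spic, a transcription factor of iron-recycling macrophages, stood at 4.77, 4.13, 0 and 14.5 CPM. Csf3r, the receptor for the granulocyte factor G-CSF, was at 5.37 and 55.5 CPM in neonates and 12.3 and 61.8 CPM in adults, and the nuclear receptor gene Nr4a1 at 205 and 455 CPM in neonates and 149 and 726 CPM in adults. Among Fc and Toll-like receptors, 6 of 16 were called higher and 1 lower after adult injury. Fcgr4, an activating IgG receptor, was at 18.8 and 57.2 CPM in neonates and 6.45 and 63.8 CPM in adults and Tlr1, which pairs with Tlr2 to sense lipoproteins, at 8.35 and 31.4 CPM in neonates and 2.34 and 33.9 CPM in adults. Both were higher after injury at both ages. Clec7a, the beta-glucan receptor Dectin-1, was at 4.47 and 35.5 CPM in neonates and 57.4 and 94.4 CPM in adults, with adult control above the neonatal libraries. Immediate early genes were called higher for 7 of 16 after adult injury and for 1 of 16 after neonatal injury, the latter near the share over all genes.

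Proliferation genes set the 2 control libraries apart. Mki67, a marker of dividing cells, stood at 114 CPM in neonate control, 57.5 in neonate injury, 15.2 in adult control and 76.7 in adult injury, and the topoisomerase gene Top2a at 111 CPM in neonate control, 62.4 in neonate injury, 3.52 in adult control and 79.5 in adult injury. Cdk1, the mitotic kinase, was at 106, 26.5, 0 and 25.8 CPM. At least 2 UMIs of the 20 mitotic genes were found in 48.5%, 15.4%, 10.2% and 25.3% of members. At 2000 UMIs the shares were 16.9% (43 of 254) in neonate control, 8.94% (42 of 470) in neonate injury, 0 of 135 in adult control and 6.38% (15 of 235) in adult injury. The exact upper limit for 0 of 135 is 2.70%. Barcodes without C1q gave 17.3%, 7.72%, 0.560% and 10.6%, in the same order of libraries, so members were close to or below the rest of the tendon and free RNA of dividing cells could not be told apart from division of members.

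Adult control held 0 to a few UMIs of most division genes, so these reached the minimum of 50 UMIs only through the other library and had to be called higher there. No count or median of the G2M list is therefore read for the age and adult injury comparisons. After neonatal injury 5 of 19 were called lower and none higher (median -0.83). For Cdk1, with no UMI in adult control, neonate control was higher by at least 5.92 and adult injury by at least 3.88 on the log2 scale, against the floor of 3 counts per library. Of the S-phase genes 7 of 16 were called lower after neonatal injury and none higher. Without members of 2 or more mitotic UMIs, 494 genes in place of 960 were called higher in the age comparison.

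Some stress and hormone-response genes differed between libraries in members and in barcodes without C1q alike. After neonatal injury 6 of 12 heat shock genes were called lower (median -1.03), Hspa1a being at 331 and 138 CPM in members and 161 and 18.8 CPM in barcodes without C1q. The glucocorticoid-induced genes Fkbp5 and Tsc22d3 were highest in adult control. Fkbp5, a cochaperone of the glucocorticoid receptor, stood at 21.8 CPM in neonate control, 7.58 in neonate injury, 278 in adult control and 43.2 in adult injury, and Tsc22d3 at 183 CPM in neonate control, 174 in neonate injury, 662 in adult control and 220.4 in adult injury. In barcodes without C1q, Fkbp5 was at 34.0, 22.4, 186 and 61.7 CPM and Tsc22d3 at 66.9, 58.9, 596 and 60.9 CPM, both highest in adult control too. Of the glucocorticoid list 6 of 11 genes were called lower in neonate over adult control, and 4 of 12 lower and 1 higher after adult injury.

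The genes at the ends of each comparison were drawn from those that reached 50 CPM in 1 of its libraries. In the age comparison, Retnla was the most strongly adult. This secreted protein of alternatively activated macrophages stood at 1.19 and 24.5 CPM in neonates and 1553 and 566 CPM in adults, and in adult control 23 of 137 members held it, with 48.8% of its UMIs in 1 member. Lyz1, a lysozyme, was at 3.58, 89.6, 445 and 91.6 CPM and the arginine transporter gene Slc7a2 at 5.37, 5.17, 189.9 and 31.5 CPM. On the neonatal side stood the imprinted genes H19, Dlk1 and Mest and the secreted factor genes Ptn and Cthrc1. H19 was at 376 CPM in neonate control and 0 in adult control, at least 7.74 higher on the log2 scale, but barcodes without C1q in neonate control held 1447 CPM. Dlk1 and Mest were likewise at 1904 and 809 CPM there, above the 309.7 and 119.8 CPM of members. The fast-muscle genes Tnnc2 and Mylpf, at 117 and 198 CPM in neonatal control members, were at 68.2 and 108 CPM in barcodes without C1q. The part of RNA from other cells in these values was not tested.

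After neonatal injury the highest ratios were those of MHC class II genes and of the acute-phase protein Saa3. Saa3 stood at 3.28 CPM in neonate control, 607 in neonate injury, 0 in adult control and 2.42 in adult injury, so it was high in 1 library only, where 78 of 499 members held it. Acod1, which makes itaconate, was at 4.17, 112, 1.17 and 20.2 CPM and Marco at 2.68, 65.5, 0 and 1.61 CPM. Ighm, the heavy chain of IgM, was at 4.17, 263, 77.4 and 67.4 CPM, and 289 of 499 members in neonate injury had a UMI, against 8.38 CPM in barcodes without C1q. B-lineage markers summed to 148 CPM in members of both neonatal libraries, below 820 and 1398 CPM in barcodes without C1q. The lowest ratios included the cartilage gene Col9a3 (-3.34, -4.22 to -2.65), the muscle gene Myl1 (-2.90, -3.33 to -2.51), Dlk1 (-2.29, -2.52 to -2.06) and the platelet chemokine gene Ppbp (-2.14, -2.66 to -1.68). Chondrocyte markers in members were at 628 and 42.7 CPM and muscle markers at 502 and 77.9 CPM in the 2 neonatal libraries.

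After adult injury the highest ratios included Fabp5 (5.38, 4.83 to 6.06), Il1rn, the cystine transporter gene Slc7a11 (6.05, 4.13 to 11.95, from 1 UMI in control), the semaphorin gene Sema4d (5.50, 4.16 to 8.01), the phosphatase gene Dusp5 (5.31, 4.35 to 6.73) and the transcription factor gene Prdm1 (5.25, 3.69 to 8.63). Nrg1, a ligand of ErbB receptors, was at 1.17 and 58.5 CPM. H19, C1qtnf3, Cthrc1, Mest and Tnc were also among them, at 989, 332, 725, 340.3 and 1269.7 CPM in barcodes without C1q of that library. The lowest were Vsig4, the ion transport regulator gene Fxyd2 at 1489 and 88 CPM (-4.08, -4.29 to -3.88), the water channel gene Aqp1 at 812 and 95.3 CPM (-3.09, -3.30 to -2.89), the retinoic acid receptor gene Rarb (-3.77, -4.69 to -3.04) and the calcium pump gene Atp2a3 (-3.60, -4.65 to -2.79). Fxyd2 and Aqp1 were high in adult control members alone, at 144, 115, 1489 and 88 CPM and 171, 101, 812 and 95.3 CPM in the 4 libraries. Clu and Kcnip4 also stood at the low end, but 1 member held 47.3% and 38.7% of their UMIs in adult control.

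Within each library, members were set against the other C1q-positive barcodes. Those with Mmp12 or at least 3 Gpnmb UMIs numbered 20, 219, 3 and 296. The 3 barcodes of adult control differed from the rest of this class, with Apoe at 28.7 CPM and H2-Aa at 5619.9 CPM, and they weigh in each count over every library. Those with neither and under 2 marker UMIs, the class with few markers, numbered 48, 626, 24 and 597. Since the rule cut the classes from the same barcodes, the ratios are a description. Against the class with Mmp12 or Gpnmb, 1626 of 9833 genes (16.5%) were higher in members in every library measured and 869 (8.84%) lower. The identity list had 15 of 21 genes higher and none lower, the interferon list 12 of 16 higher and the lipid list 6 of 17 lower. Cbr2 stood at 222 against 6.55 CPM in neonate injury and 188 against 49.1 CPM in adult injury, and Cd209f, a C-type lectin, at 24.5 against 0 and 34.7 against 6.37 CPM. Fabp5 was at 127 against 2232 and 599.8 against 1843 CPM and Spp1 at 47.2 against 3103 and 679 against 2993 CPM, members first.

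Against the class with few markers, 1426 of 10181 genes (14.0%) were higher in every library measured and 1282 (12.6%) lower. This class was shallower, with a median of 8306.5, 4275.5, 8128 and 6229 UMIs against 12098, 5340, 11644 and 9257 in members. The contrast was not thinned, so barcodes with few markers for lack of depth are among this class. Identity genes were higher for 17 of 21, iron and haem genes for 9 of 13, and all 6 MHC class II genes tested were lower. Cbr2 was at 196 against 21.0 CPM in neonate control and 188 against 47.5 CPM in adult injury, and the endothelin receptor gene Ednrb at 596 against 63.0 and 161 against 42.2 CPM. H2-Ab1 had log2 ratios of -6.47, -1.29, -3.06 and -0.35, and H2-Eb1 -6.63, -1.64, -2.98 and -0.43, in the usual order of libraries. In adult injury the members were thus closest to the class with few markers in these 2 genes. Il1b had log2 ratios of -3.42, -3.07, -3.35 and -1.36.

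**Figure D5:**
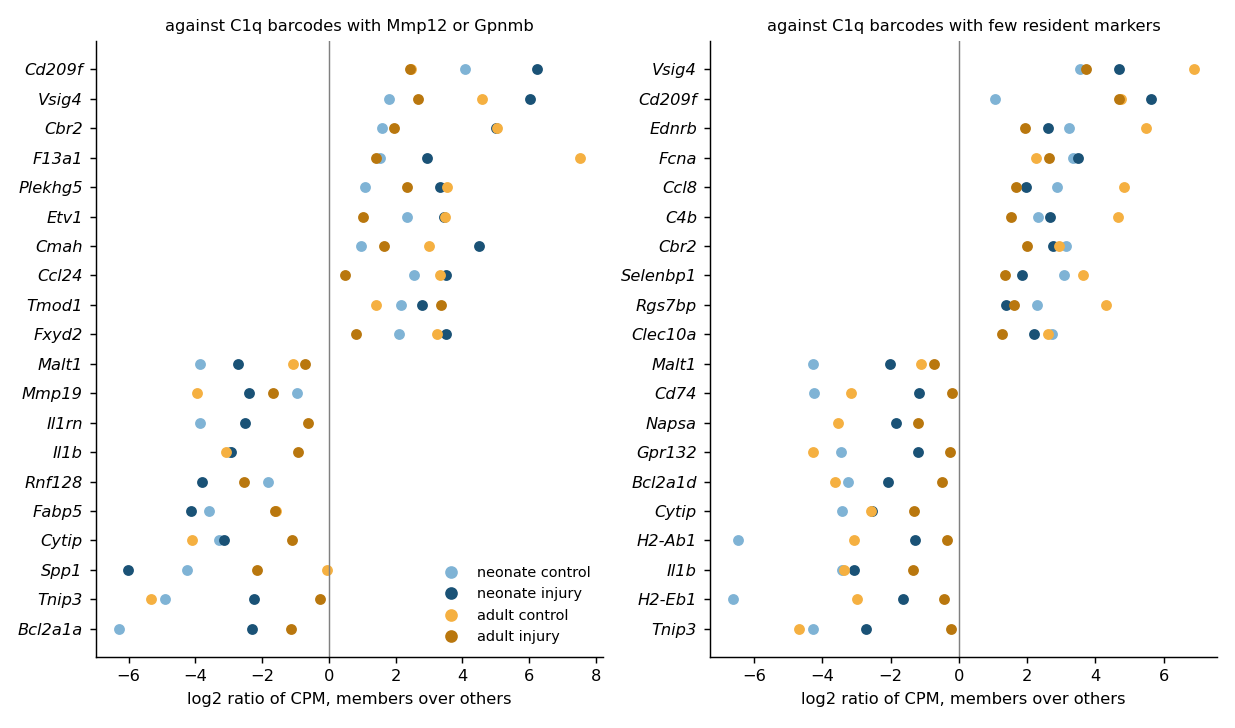
Log2 ratio of CPM in members over the other C1q-positive classes of the same library, for named genes in each of the 4 libraries. Identity genes such as Cbr2 and Cd209f lie above 0 against both classes, and H2-Eb1 and H2-Ab1 lie below 0 against the class with few markers, nearest to 0 in adult injury (-0.43 and -0.35).

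Members of neonate injury with Y-linked UMIs differed from those with Xist at nearly the same depth, with a median of 5456 UMIs in the 132 members with a Y-linked UMI only and 5567 in the 263 with Xist only. H2-Aa was at 504 against 99.8 CPM, Y-linked class first, and H2-Eb1 at 459 against 60.4 CPM. Saa3 was at 911 against 161 CPM, Acod1 at 284 against 1.27 CPM and Marco at 139 against 10.2 CPM. Interferon-stimulated genes were also higher in the Y-linked class, with Irf7 at 159 against 40.7 CPM and Ifitm3 at 1521 against 508 CPM. Folr2 was at 1069.9 against 597 CPM and Timd4 at 119 against 31.8 CPM, while Lyve1 was closer, at 221 against 255 CPM. Monocyte genes were mixed. Ly6c2 had 66 UMIs in the Y-linked class and 0 in the Xist class, Plac8 was at 125 against 23.5 CPM and Ms4a4c at 56.4 against 12.7 CPM, while Ccr2 was at 73.5 against 59.7 CPM, with an interval of the log2 ratio of Xist over Y-linked that held 0 (-0.30, -0.79 to 0.20). RNA of other cells also differed between the classes. Col1a1 was at 654 against 5143 CPM, Dcn at 53.8 against 367 CPM and the tendon gene Tnmd at 2.63 against 125 CPM, higher in the Xist class, and haemoglobin Hbb-bs at 2505 against 151 CPM, higher in the Y-linked class. Their part in the other differences was not tested. Slc40a1 and Cd163 were higher in the Xist class, at 53.8 against 144 CPM and 82.7 against 165 CPM, Y-linked class first again. Sex and animal cannot be told apart in this library, and cells are not replicates. With only Y-linked members kept in neonate injury, matching the sex of neonate control, the MHC class II median was 5.78 in place of 4.56 and the interferon median 1.98 in place of 1.37.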

How the data were processed

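Droplet single-cell RNA-seq of digested mouse Achilles tendon was read from 4 matrices of UMI counts per gene and barcode, which per the file headers are the authors' output of Cell Ranger 8.0.1, with GRCm39 as the genome build, per the submitters' processing notes. The deposited counts are not normalised. The annotation and the cell calling are not given in the sources used here, and deposited barcodes numbered 10887, 16327, 6563 and 5003 with 68644322 to 128626912 UMIs per library.

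From these counts, members were chosen by the rule in the text and their UMIs were summed per library. Ratios of CPM used 0.5 added counts and genes with at least 50 UMIs over both libraries, and called means at least 2-fold. Intervals are exact (Poisson for levels, Clopper-Pearson for shares, binomial for ratios) and cover counting error only. No test was made, since each group is 1 library. The arithmetic was checked on simulated Poisson counts drawn from the pooled sums, without variation between cells or animals. The intervals assume such counts, so the check cannot show how well they cover real differences. In it, intervals held a set 4-fold difference in 95% (age comparison, 8857 genes), 95% (neonatal injury, 9496 genes) and 96% (adult injury, 8341 genes) of the altered genes. Of genes set 2-fold apart, at the threshold itself, 29%, 45% and 39% were called, and the intervals held the set value in 96%, 93% and 96%. A single floor of 3 counts per library was used for genes at 0.

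Thinning drew 2000 UMIs per barcode without replacement (seed 20) and left out shallower barcodes (6, 29, 2 and 2 members). Doublets were not removed. As an alternative, the highest Scrublet scores (scanpy 1.11.5) were left out, up to 0.8% of barcodes per 1000 barcodes, which took 14.6%, 8.22%, 5.11% and 4.22% of members.

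Genes named in the text were the 12 highest and 12 lowest ratios of a comparison with at least 50 CPM in 1 library, without mitochondrial, ribosomal, predicted, haemoglobin, sex-linked and rule genes, markers of other cells and genes over 10 times higher in barcodes without C1q. Up to 4 members of each list described, and list members whose value in every library is given, were also named. Members, lists and alternatives were chosen with earlier results of these data known. Alternatives were a stricter quality filter, other minimums for markers, C1q and counts, members left out by class, the mean of single-cell CPM and edgeR's TMM scaling. edgeR 4.0.16 in R 4.3.3 gave scaling factors only. Python 3.11.15, numpy 2.4.6, pandas 2.3.3, scipy 1.17.1 and matplotlib 3.10.9 were used.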

Additional observations from a re-analysis of the deposited data

Results flagged for a closer look

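Several genes differed in opposite directions after the 2 injuries. Each value is the log2 ratio after neonatal injury minus that after adult injury. Only genes of the lists were considered, and a gene is given where both ratios were at least 2-fold and in opposite directions. For list medians, also of opposite sign, the limit was lower than 2-fold. Genes outside the lists and genes with smaller ratios of opposite sign are therefore not given. With 1 library per group, these differences were not tested.

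Over the genes compared after both injuries, the medians of the lists differed by -2.11 for 14 chemokines, -4.86 for 9 G2M genes and -2.23 for 9 S-phase genes. Most of the division genes were near 0 in adult control and were compared only because adult injury held their UMIs, so a positive adult ratio was fixed for them. Among chemokines the differences were -2.72 for Ccl2, -2.98 for Cxcl1, -2.84 for Cxcl2 and -6.87 for Cxcl10. The division genes stood at -5.87 for Cdk1, a bound from the floor of 3 counts because adult control had no UMI, -5.78 for Ube2c, -2.27 for Mcm3, -2.79 for Mcm4, -3.50 for Mcm5 and -3.16 for Mcm7. The iron and haem genes Hmox1 and Slc40a1 differed by -3.71 and -4.79. The cytokine gene Il1a stood at -3.78, the stress-induced factor gene Gdf15 at -6.13, Vegfa at -4.51, the protease gene Ctsl at -2.33 and the heat shock gene Hspa1a at -2.45. Cxcl10, Slc40a1 and Vegfa were also near 0 in adult control, so a positive adult ratio was fixed for them too.

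The reverse order was seen for Pdgfc (2.44), Retnla (5.65) and Ly6c2 (8.88). For Pdgfc the adult ratio was 0.028 without members of 5 or more fibroblast UMIs, so the opposite directions were not seen there. The Ly6c2 UMIs of adult control came from 1 member, and 48.8% of the Retnla UMIs there came from 1 member. Ly6c2 and Retnla were near 0 in neonate control, so a positive neonatal ratio was fixed for them.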

How the results depend on the processing

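No paired analysis was possible because each group is 1 library. Of 24 shares of members under alternatives, 18 stayed within their interval. The others were 2.18% without members over 1% other-type markers and 1.91% thinned in neonate control, 2.71% with 3 marker UMIs and 2.15% thinned in neonate injury, and 3.14% with 3 marker UMIs and 2.10% thinned in adult injury. Genes called higher in the age comparison numbered 494 without cycling members and 215 without members of 5 or more fibroblast UMIs. With a minimum of 20 UMIs they were 1590, and with 200 UMIs 329 higher and 372 lower. After neonatal injury, 380 higher and 268 lower were called without members of 5 or more fibroblast UMIs, 943 and 1026 at 20 UMIs and 249 and 283 at 200 UMIs. With only Y-linked members 1246 were lower. After adult injury, 184 higher and 346 lower were called without members of 5 or more fibroblast UMIs, 1508 and 927 at 20 UMIs and 357 and 257 at 200 UMIs. With only members that had no MHC class II or Ccr2 UMI 353 were higher. A filter on counts sets how many genes are compared, and leaving out members lowers their UMIs. The part of each in these numbers was not tested.

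Of the list medians under alternatives, 747 held, 45 differed by over the interval set for them and 3 reversed. The 3 were those of the monocyte list after adult injury (-0.10 with 3 marker UMIs, -0.32 without members of 5 or more fibroblast UMIs, -0.24 without MHC class II or Ccr2 UMIs). Of the shares of members with a UMI, 116 moved beyond their interval on thinning and 24 did not. Of gene ratios, 1419 moved, 8500 held and 9 reversed. Those that reversed were Spp1 in the age comparison (1.34 with the highest Scrublet scores removed, 1.32 without members over 1% other-type markers) and 5 after adult injury. These were Cd209f (0.045, mean of single-cell CPM), Fcgr1 (-0.041, no MHC class II or Ccr2 UMI), Itgav (-0.073) and Pdgfc (0.028) without members of 5 or more fibroblast UMIs, and Timp3 (-1.57 without members over 1% other-type markers, -0.16 with no MHC class II or Ccr2 UMI, -0.041 as a mean of single-cell CPM). The cause was not tested. The alternatives on other-type markers and on MHC class II and Ccr2 UMIs were chosen after seeing the data.

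Depth limits genes with few UMIs, and 12 members of adult injury had under 5 fibroblast UMIs. Ratios rest on 1 library each, so differences between animals are not measured.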
